A study of Mus musculus with 75 samples.

Results

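The RNA of 10 genes that mark endothelial cells and adipocytes was followed through the passages of mouse skin fibroblasts and through perturbations of 3 transcription factors. The genes were chosen by name, with earlier results of these data known, the fall of Cd36 among them. Pecam1, Cdh5, Kdr, Tek and Emcn stand for the cells that line blood vessels, and Cd36, Fabp4, Adipoq, Pparg and Lpl for fat cells, 10 of the 24984 genes counted in each library. RNA-seq counts came from 44 libraries of mouse skin fibroblasts. Of these, 16 were untreated cells at passages 1, 3, 5 and 7 (P1 to P7, 4 libraries each), grown from the skin of 2-month-old female C57BL/6 mice. The other 28 were E2f4 overexpression (2) against its control (2), an E2f4 hairpin (sh1, 3) against its control (nt, 3), Tead1 hairpins sh3 and sh4 (3 each) against nt (3), and Atf3 hairpins sh5 and sh6 (3 each) against nt (3). By the study's methods E2f4 came from a doxycycline-induced lentiviral vector, with EGFP overexpression as the control, hairpins were delivered by lentivirus, and the perturbed cells came from newborn or 2-month-old mice. The methods name the C57BL/6 strain for the 2-month-old mice and no strain for the newborn mice. The study places E2f4 overexpression in P4 cells and E2f4 knockdown in P3 cells. Its results call the cells of the Atf3 knockdown pre-senescent. For Tead1 and Atf3 its methods name only P2 and P3 for proliferating cells and P6 for senescence interventions. The labels give neither age nor passage for any perturbed library. ATAC-seq peak lists of the same passages came from 13 samples (4 at P1, 3 each at P3, P5 and P7). Nothing in the labels ties a replicate to a mouse, so p-values cover the spread between these libraries, which may be technical. The study speaks of 3 independent series for its RRBS samples, but the labels name no series for the RNA-seq libraries.

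Vessel endothelium is held together by Cdh5 (VE-cadherin) and Pecam1 (CD31) at the cell junctions, reads VEGF through the receptor Kdr and angiopoietins through the receptor Tek, and carries the sialomucin Emcn on capillary and venous surfaces. In fat cells the nuclear receptor Pparg drives differentiation, the secreted lipase Lpl releases fatty acids from lipoproteins, Cd36 takes them up, Fabp4 carries them in the cytosol, and Adipoq is the hormone adiponectin that mature adipocytes secrete. Few of these genes are exclusive. Cd36 and Fabp4 are also made by capillary endothelium and macrophages, and Lpl and Pparg by macrophages and by cells of the adipocyte lineage that hold no fat. A skin digest contains vessels, fat, muscle, epidermis and macrophages beside the fibroblasts, so early passages can carry RNA of all of them.

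The members lie on 7 chromosomes (RefSeq annotation of GRCm38.p6, the mm10 build used by the authors). Pecam1 spans chr11:106654213-106715281 on the minus strand, Cdh5 chr8:104101613-104144504 (plus), Kdr chr5:75932827-75979072 (minus), Tek chr4:94739086-94874976 (plus) and Emcn chr3:137341062-137431069 (plus). Cd36 spans chr5:17781690-17888959 (minus), Fabp4 chr3:10204342-10208616 (minus), Adipoq chr16:23146536-23157968 (plus), Pparg chr6:115360879-115490404 (plus) and Lpl chr8:68880555-68906932 (plus). No exon of a member overlapped a curated exon of another gene, so the unstranded counts were not shared in this way.

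The RefSeq promoter table held 6 of the 10 members, with 8 start sites. The 250 bases before the start site are shown for 4 of them. Kdr and Pparg transcript variant 2 are shown because an ATAC-seq peak lay at the start in some passage, and Emcn and the Cd36 start at position 17835896 because none lay within 1000 bases in any of the 13 samples. Capitals would mark a match to 2 copies of AGGTCA with 1 base between (the repeat that PPAR:RXR binds), TGACTCA or TGAGTCA (AP-1) or TATAAA, searched on both strands. None of these 4 windows held one.
Kdr, chr5:75978456-75978705, minus strand: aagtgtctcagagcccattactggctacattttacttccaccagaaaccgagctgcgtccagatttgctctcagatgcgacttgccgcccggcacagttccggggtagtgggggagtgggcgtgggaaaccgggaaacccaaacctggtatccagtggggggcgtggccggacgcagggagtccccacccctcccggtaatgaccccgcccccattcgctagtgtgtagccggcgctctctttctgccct
Pparg variant 2, chr6:115421816-115422065, plus strand: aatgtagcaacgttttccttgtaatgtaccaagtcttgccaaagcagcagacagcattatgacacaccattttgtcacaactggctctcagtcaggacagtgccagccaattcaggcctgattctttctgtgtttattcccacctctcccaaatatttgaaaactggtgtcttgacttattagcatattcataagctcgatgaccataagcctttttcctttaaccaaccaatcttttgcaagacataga
Emcn, chr3:137340828-137341077, plus strand: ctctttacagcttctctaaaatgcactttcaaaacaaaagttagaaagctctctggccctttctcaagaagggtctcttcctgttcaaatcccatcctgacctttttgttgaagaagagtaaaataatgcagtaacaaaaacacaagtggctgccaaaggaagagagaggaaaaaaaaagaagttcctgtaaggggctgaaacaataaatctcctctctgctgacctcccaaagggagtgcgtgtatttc
Cd36, chr5:17835897-17836146, minus strand: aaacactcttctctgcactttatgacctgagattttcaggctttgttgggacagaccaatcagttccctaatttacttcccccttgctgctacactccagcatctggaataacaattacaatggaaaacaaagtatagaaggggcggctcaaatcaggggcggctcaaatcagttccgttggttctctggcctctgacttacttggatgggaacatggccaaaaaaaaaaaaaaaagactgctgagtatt
Over all 8 member windows the count of matches was 0 for the PPAR repeat, 0 for AP-1 and 1 for TATAAA, ahead of the start of Pparg variant 4. Among the 32851 promoter windows in the table the shares with a match were 0.0335%, 4.46% and 12.4%. The Kdr window was rich in CpG (16 CpG dinucleotides, 61.6% GC), whereas the Pparg variant 2 window held 2 (40.8% GC), Emcn 1 (40.8% GC), Cd36 3 (43.2% GC), Tek 2 (51.2% GC) and Adipoq 0 (48.8% GC). The median over all windows was 6 CpG and 52.4% GC. The window ahead of Pparg variant 3 held 38 CpG (82.4% GC), so the upstream and downstream starts of Pparg differed in base content.

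Levels are given as CPM, the read count of a gene relative to its library size, scaled by the trimmed mean of M-values. Passage libraries held 13430229 to 15725823 reads in genes and perturbation libraries 9147324 to 27552949. Each targeted gene lay on the labelled side of its control in every library. E2f4 was at 1148 ± 43.8 CPM (SD, n = 2) when overexpressed against 41.5 ± 8.55 (n = 2), and at 21.2 ± 0.77 under sh1 against 59.9 ± 0.73 (n = 3 each). Tead1 was at 279 ± 9.57 (sh3) and 316 ± 3.63 (sh4) against 541 ± 32.2, and Atf3, a weakly expressed gene here, at 1.34 ± 0.83 (sh5) and 1.72 ± 0.32 (sh6) against 2.98 ± 0.29. In P1 library 3 the summed keratinocyte markers reached 503 CPM, against a P1 median of 133. The counts of members called at P3 and P7 were as large without that library (7 and 9).

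All 5 endothelial markers fell between P1 and P3, and by P7 Pecam1 was at 0.85% of its P1 level. The falls were steepest for the junction genes, of which Pecam1 and Cdh5 kept 18.0% and 18.8% of their P1 level at P3, against 42.1% and 40.6% for the receptors Kdr and Tek and 43.7% for Emcn. Called here means an adjusted p under 0.05 and a change over 2-fold in edgeR's quasi-likelihood test across all genes. At P3 against P1, 5 of 5 endothelial markers and 2 of the 4 adipocyte markers tested were called, all of them lower. Of all 13442 genes tested 8.98% were called and 6.58% were called lower.

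Pecam1 had 423, 424, 463 and 571 reads in the P1 libraries, 70, 98, 68 and 92 at P3, 4, 18, 10 and 24 at P5, and 1, 5, 0 and 8 at P7. No P3, P5 or P7 library reached the lowest P1 library, while P5 and P7 overlapped. The mean was 31.2 ± 3.05 CPM at P1 and 5.61 ± 1.29 at P3 (SD, n = 4 each), a log2 change of -2.48 (SE 0.26, adjusted p = 6.55e-07, edgeR). At P5 it was 0.93 ± 0.60 CPM and at P7 0.26 ± 0.28 CPM, a log2 change of -6.83 (SE 0.40) from P1.

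Cdh5, the adhesion molecule of the endothelial junction, followed the same course at a higher level. Its P1 libraries held 664, 646, 683 and 776 reads, those of P3 147, 107, 109 and 145, those of P5 36, 45, 16 and 43, and those of P7 12, 25, 13 and 19. Again every later library was below every P1 library. From 46.0 ± 1.75 CPM it went to 8.65 ± 1.75 at P3 (log2 change -2.41, SE 0.19, adjusted p = 1.75e-08, edgeR), 2.33 ± 0.92 at P5 and 1.31 ± 0.46 at P7, which left 2.86% of the P1 level.

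Kdr, the main VEGF receptor, started level with Cdh5 in CPM and fell more slowly. It was at 47.9, 45.8, 45.1 and 43.4 CPM in the P1 libraries, at 21.5, 18.5, 19.8 and 16.9 at P3, at 8.53, 6.63, 9.17 and 4.10 at P5, and at 4.96, 5.63, 7.30 and 3.56 at P7. The P1, P3 and P5 groups did not overlap, and P5 and P7 did. The log2 change was -1.25 at P3 (SE 0.18, adjusted p = 1.97e-05), -2.68 at P5 (SE 0.19) and -3.09 at P7 (SE 0.20, adjusted p = 1.05e-10), and 65, 73, 95 and 48 reads were left in the P7 libraries.

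Tek was the less abundant of the 2 receptors, and at P5 and P7 it kept a larger share of its P1 level than the other endothelial markers. The P1 libraries held 79, 112, 99 and 87 reads, the P3 libraries 35, 52, 37 and 27, the P5 libraries 25, 34, 34 and 27, and the P7 libraries 15, 20, 8 and 19. Its level went from 6.29 ± 1.09 CPM to 2.56 ± 0.70 at P3 (log2 change -1.29, SE 0.23, adjusted p = 2.28e-04, edgeR), 1.99 ± 0.34 at P5 and 1.18 ± 0.41 at P7, 18.7% of P1. P3 and P5 overlapped (log2 change -0.36, adjusted p = 0.284, edgeR).

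Emcn, the capillary sialomucin, went from 75, 81, 89 and 99 reads at P1 to 26, 44, 26 and 49 at P3, 4, 14, 4 and 12 at P5 and 3, 7, 0 and 9 at P7. P1, P3 and P5 were separate and P5 and P7 overlapped. The log2 change was -1.20 at P3 (SE 0.34, adjusted p = 0.0113) and -3.95 at P7 (SE 0.46, adjusted p = 4e-07), with 6.29% of the P1 level left at P7.

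**Figure D1:**
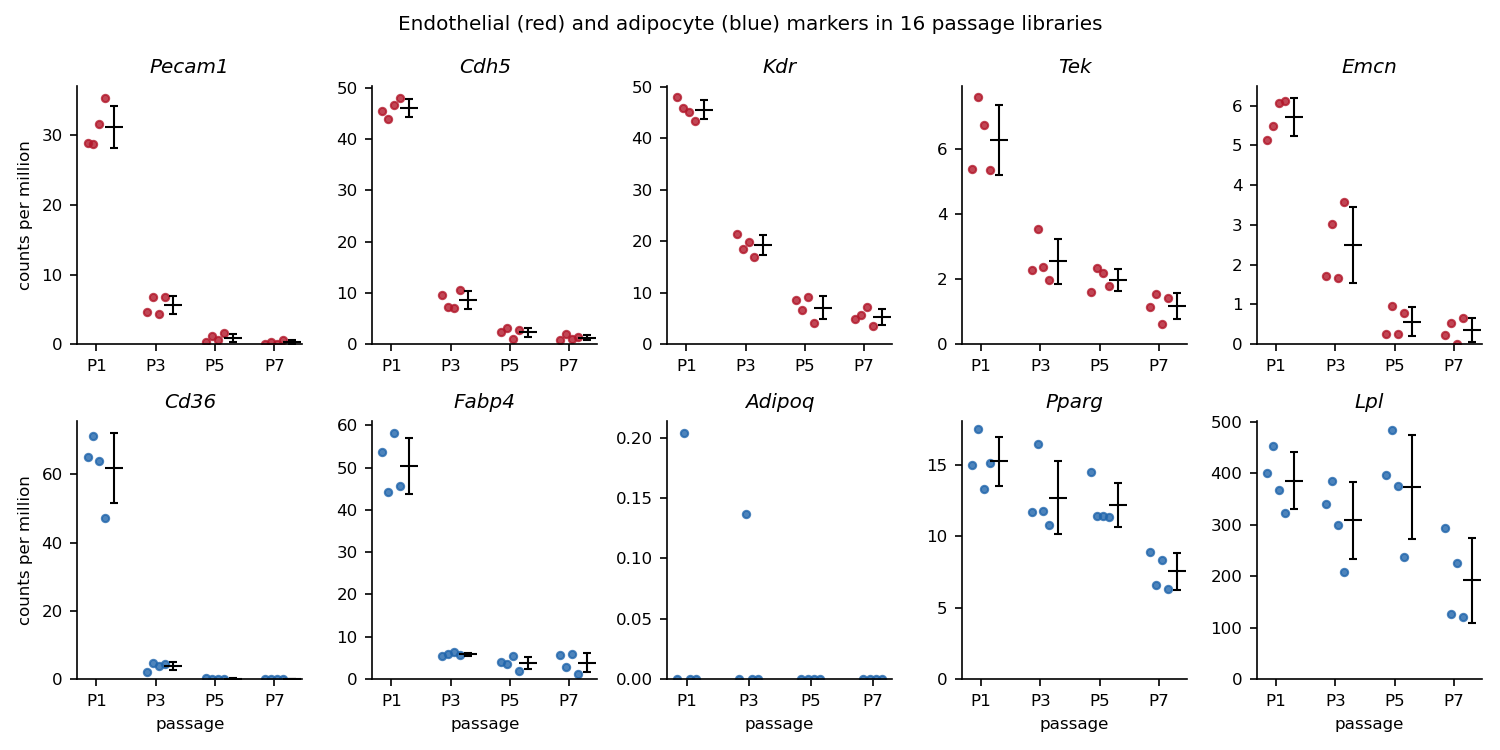
Level of each marker (CPM, vertical axis from 0) in the 16 passage libraries by passage, 1 point per library, with the mean and SD as a black bar (no bar for Adipoq, which had reads in 2 libraries). The 5 endothelial markers and Cd36 and Fabp4 drop between P1 and P3, whereas Pparg and Lpl overlap between P1 and P3.

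The adipocyte markers split into 3 courses. Cd36 and Fabp4 fell steeply between P1 and P3, Pparg and Lpl did not pass the test until P7, and Adipoq was at or near 0 throughout. Cd36 had 950, 1047, 935 and 763 reads at P1, 32, 67, 61 and 61 at P3, 6, 0, 2 and 2 at P5, and 1, 0, 0 and 0 at P7. The groups P1, P3 and P5 did not overlap. At P3 it was at 3.77 ± 1.15 CPM against 61.8 ± 10.2 at P1 (log2 change -4.04, SE 0.22, adjusted p = 1.64e-10, edgeR), and at P5 at 0.16 ± 0.16. Over the 4 P7 libraries together a single read was left against 3695 at P1, a ratio of 3229 with a 95% counting interval of 579 to 127585, which covers counting error only. The fall of Cd36 was known when the genes were chosen, so its p-values and this ratio describe that fall and are no separate test of it.

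Fabp4, the fatty acid carrier, fell as early. It was at 53.7, 44.3, 58.2 and 45.6 CPM in the P1 libraries, at 5.52, 5.90, 6.38 and 5.63 at P3, at 3.94, 3.59, 5.36 and 1.98 at P5, and at 5.72, 2.85, 5.84 and 1.19 at P7. The log2 change was -3.10 at P3 (SE 0.28, adjusted p = 7.91e-08) and -3.69 at P7 (SE 0.29, adjusted p = 2e-09). Every P5 library was below every P3 library, a step of -0.65 (SE 0.31, adjusted p = 0.118, edgeR) that passed the adjusted p only with a replicate block (0.0434) among the alternatives. The P7 libraries overlapped those of P3 and P5, and 16 to 76 reads remained in each, so that 7.73% of the P1 level was left.

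Adipoq, the hormone of mature fat cells, had 3 reads in P1 library 2, 2 reads in P3 library 2 and none in the other 14 passage libraries. A count of 0 allows up to 0.185 to 0.231 CPM (3 reads) in these libraries. It did not pass the filter on low counts in any experiment and was not tested. In the 28 perturbation libraries it had 9 reads in all, 3 at most in a library. Beyond these few reads Adipoq RNA was not detectable at this depth, in P1 as in later passages.

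Pparg was at 15.0, 17.5, 13.3 and 15.1 CPM in the P1 libraries, at 11.7, 16.5, 11.8 and 10.8 at P3, at 14.5, 11.4, 11.4 and 11.4 at P5, and at 8.93, 6.56, 8.37 and 6.31 at P7. The first 3 passages overlapped and P7 lay below all of them. The log2 change from P1 was -0.26 at P3 (SE 0.15, adjusted p = 0.183, edgeR), -0.32 at P5 (SE 0.15, adjusted p = 0.0792) and -1.02 at P7 (SE 0.16, adjusted p = 1.36e-05). The step from P5 to P7 was -0.69 (SE 0.16, adjusted p = 0.00478, edgeR).

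Lpl was the most abundant member at every passage. Its P1 libraries held 5855, 6685, 5374 and 5227 reads, those of P3 5199, 5630, 4639 and 2856, those of P5 6145, 6999, 5808 and 3598, and those of P7 3855, 1650, 2935 and 1628. Library 4 was the lowest of its group at each passage, in reads and in CPM. The level went from 386 ± 55.2 CPM at P1 to 309 ± 75.6 (P3), 373 ± 102 (P5) and 192 ± 83.3 (P7), and only P7 differed from P1 in the test (log2 change -1.01, SE 0.25, adjusted p = 0.00165, edgeR), with 49.7% of the P1 level left. Pparg and Lpl were hardly past the 2-fold threshold. Pparg moved inside it (-0.95 to -0.93) without P1 library 2 or P7 library 2 or 4, and Lpl (-0.99 to -0.84) without P1 library 1 or 2 or P7 library 2 or 4, with adjusted p of 0.00843 at most (edgeR).

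**Figure D2:**
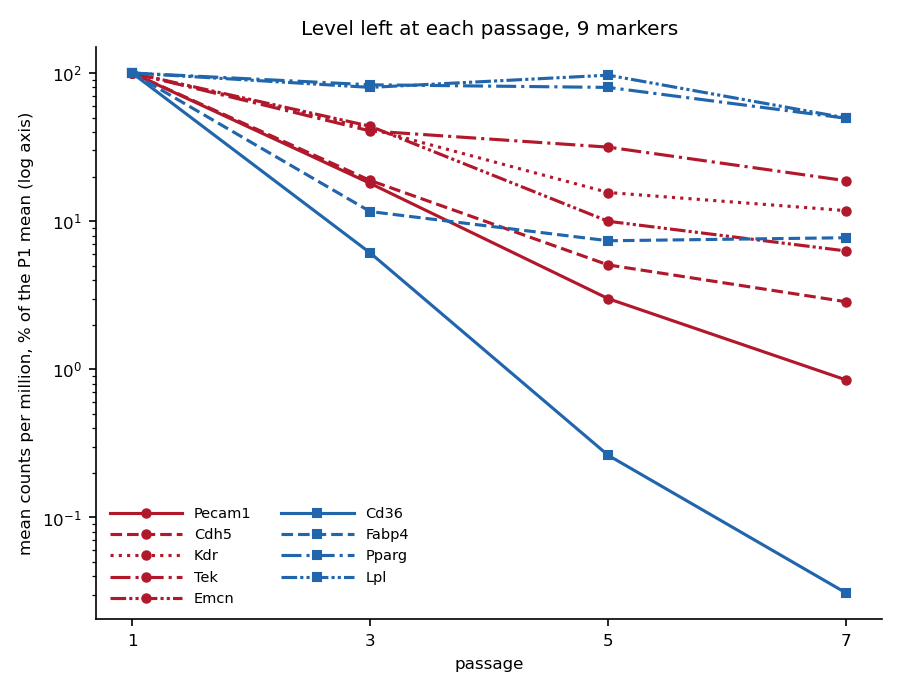
Mean level of 9 markers as a percent of their P1 mean (log axis) by passage, endothelial markers in red with circles and adipocyte markers in blue with squares, means of 4 libraries. Cd36 reaches 0.0309% at P7, the endothelial markers lie between 0.85% (Pecam1) and 18.7% (Tek), and Pparg and Lpl stay near 50%, at 49.5% and 49.7%.

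Between P3 and P5 the members called were Pecam1 (log2 change -2.58), Cdh5 (-1.89), Kdr (-1.43), Emcn (-2.12) and Cd36 (-4.44), all lower, while 3.89% of all genes were called and 3.05% called lower. Tek (-0.36), Fabp4 (-0.65), Pparg (-0.06) and Lpl (0.27) did not pass the test. At P5 against P1 the 7 members called at P3 were called again, and 15.0% of all genes were called and 10.1% called lower. At P7 against P1 all 9 members tested were called lower, where 21.4% of all genes were called and 13.3% called lower. With only the P1 and P7 libraries in the fit 7 were called, since Pparg and Lpl were each at -0.99 (adjusted p = 7.21e-05 and 0.00283, edgeR). Between P5 and P7 only Pecam1 was called (log2 change -1.77, SE 0.59, adjusted p = 0.0453, edgeR), from 56 reads in 4 libraries to 14, and 3.47% of all genes were called and 2.28% called lower. That call was lost, with adjusted p of 0.0626 to 0.133, without P5 library 2 or 4 or P7 library 1, 2 or 3. Lpl passed the adjusted p at a change of -0.96 (SE 0.25, adjusted p = 0.0118, groups overlapping) and was called without P5 library 4 (-1.13) or P7 library 1 (-1.24) or 3 (-1.04). Cdh5 was at -0.82 (adjusted p = 0.0638) and was called without P5 library 3 (-1.07) or P7 library 2 (-1.06). These comparisons share libraries and are not independent of each other. In bulk RNA, fewer cells of a type and less RNA per cell cannot be told apart, and this holds for every fall given here.

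Per kilobase of exon the order at P1 was Lpl (95.4 CPM per kb), Fabp4 (74.0), Cd36 (15.7), Cdh5 (11.5), Pecam1 (9.35), Pparg (6.56), Kdr (5.93), Emcn (3.91), Tek (1.34) and Adipoq (0.0413). In this order the libraries of Lpl and Fabp4, of Cd36 and Cdh5, and of Pparg and Kdr overlapped, and the other neighbours were apart. At P7 the order was Lpl (47.4), Fabp4 (5.72), Pparg (3.25), Kdr (0.699), Cdh5 (0.329), Tek (0.25), Emcn (0.246), Pecam1 (0.0792), Cd36 (0.00486) and Adipoq at 0. Neighbours from Kdr down overlapped, as did Fabp4 and Pparg, and Pparg and Kdr were apart. Cd36 thus moved from the third place to the ninth, and Pparg from the sixth to the third.

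Other endothelial genes moved with the members, apart from a few that are abundant in these cultures. Of 25 further endothelial markers 24 could be tested, and at P3 against P1 18 were called lower and 1 higher, with a median log2 change of -2.29 against 0.00495 over all genes. Esam, a junction protein, fell 18.3-fold (5.43 CPM at P1), the transcription factor Sox18 9.56-fold (6.38 CPM) and the nitric oxide synthase Nos3 8.05-fold (5.69 CPM). The 2 most abundant of the list did not follow. Eng, a TGF-beta co-receptor, was at 186 CPM at P1 and 171 at P3 (log2 change -0.12, adjusted p = 0.466, edgeR), and Flt1, a VEGF receptor, rose 2.58-fold from 70.1 to 181 CPM. At P7 20 were called lower and 1, again Flt1, higher, and the claudin Cldn5 had gone from 7.02 CPM at P1 to no read in any P7 library. Gpihbp1 and Sox17 also had none. Because Eng and Flt1 held most of the reads, the summed list went only from 480 to 584 CPM in the P1 libraries to 324 to 419 CPM in the P7 libraries.

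In the wider VEGF and angiopoietin system, a list of 15 ligands and receptors that includes Kdr and Tek, 6 were called lower and 1 higher at P3 (median log2 change -0.77) and 7 lower and 2 higher at P7 (-0.97). Flt1, Flt4 and Tie1 are also among the further endothelial markers above, so the 2 lists are not separate. The ligand Angpt2 fell from 85.6 to 15.5 CPM at P3, Angpt4 from 57.7 to 18.2 and the orphan receptor Tie1 from 21.5 to 2.92. The co-receptor Nrp2, at 398 CPM the most abundant of the list, was at 301 at P3 and called lower at P7 (189 CPM), and Vegfa was at 134 CPM at P1 and 160 at P7 (log2 change 0.26, adjusted p = 0.0362, edgeR). Mural cell genes, which mark the pericytes and smooth muscle around vessels, went both ways, with 2 of 8 tested called lower and 2 higher at P3. Des fell from 30.4 to 4.55 CPM, Mcam rose from 40.4 to 85.3, Ndufa4l2 rose from 1.70 to 8.37, and Cspg4 was at 135 and 144 CPM.

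The adipocyte lists did not move as a block. Of 20 further mature adipocyte markers only 10 were abundant enough to test, and Cidec, Lep, Pck1 and Thrsp had no read in any P1 library. Of the 10, 2 were called lower and 1 higher at P3 and again at P7, with medians of -0.47 and -0.51. The lipid droplet protein Plin4 fell from 42.1 to 7.61 CPM at P3, the adrenergic receptor Adrb3 rose from 0.45 to 1.24, and the lipogenic enzymes Fasn (859 and 485 CPM) and Scd1 (461 and 382 CPM) made up most of the list's reads. The summed list was at 1395 to 1500 CPM in the P1 libraries and 777 to 1019 CPM in the P3 libraries. Of 20 adipogenic regulators and preadipocyte genes, Pparg among them, 18 were tested and 6 were called lower at P3 and 7 lower and 1 higher at P7. Dpp4, a surface marker of adipogenic progenitors, fell from 3.20 to 0.53 CPM at P3, Fabp5 from 239 to 84.2 and Zfp423 from 7.11 to 2.63, while Cebpb was at 170 and 138 CPM (adjusted p = 0.219, edgeR). Among 15 genes of fatty acid handling and PPAR targets the 3 called lower at P3, of 14 tested, were Cd36, Fabp4 and Fabp5, the first 2 being members, and the median was -0.23.

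Markers of cell types other than endothelium and fat moved along with the falls of Pecam1, Cdh5, Cd36 and Fabp4 between P1 and P3. Of 18 macrophage markers 14 could be tested and all 14 were called lower at P3 (median log2 change -3.57), with Lyz2 at 281 CPM at P1 and 33.4 at P3 and Cd68 at 37.5 and 2.81. The summed macrophage list was at 372 to 576 CPM at P1 and 52.1 to 72.0 at P3, then 23.8 to 34.2 at P5 and 36.0 to 57.6 at P7, and Marco had no read at P3. Of 12 skeletal muscle markers 9 of 10 tested were called lower (summed 153 to 237 CPM at P1 and 56.4 to 62.1 at P3, with Ckm and Pax7 at 0 in every P3 library), among them Myh3 from 48.1 to 2.30 CPM, but not Acta1 (57.3 and 46.4 CPM). Of 12 keratinocyte markers 9 of 10 tested were called lower (summed 85.1 to 503 CPM at P1 and 5.83 to 8.61 at P3, with Krt15 at 0 in both), among them Krt14 from 54.1 to 0.0881 CPM and Krt5 from 61.8 to 0.0970. Fibroblast markers, 12 genes all tested, had 2 called higher and 2 lower (median 0.39), and their sum was 28399 to 30062 CPM at P1 and 43893 to 50592 at P3. Fn1 rose from 3628 to 10727 CPM, while Dcn fell from 998 to 418 and Lum from 62.2 to 14.0. Col1a1 (8990 and 12722 CPM) and Col1a2 (5621 and 9304 CPM) were the 2 highest of this list at P1. The part of each of these cell types in the values of Cd36, Fabp4, Pparg and Lpl was not tested.

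**Figure D3:**
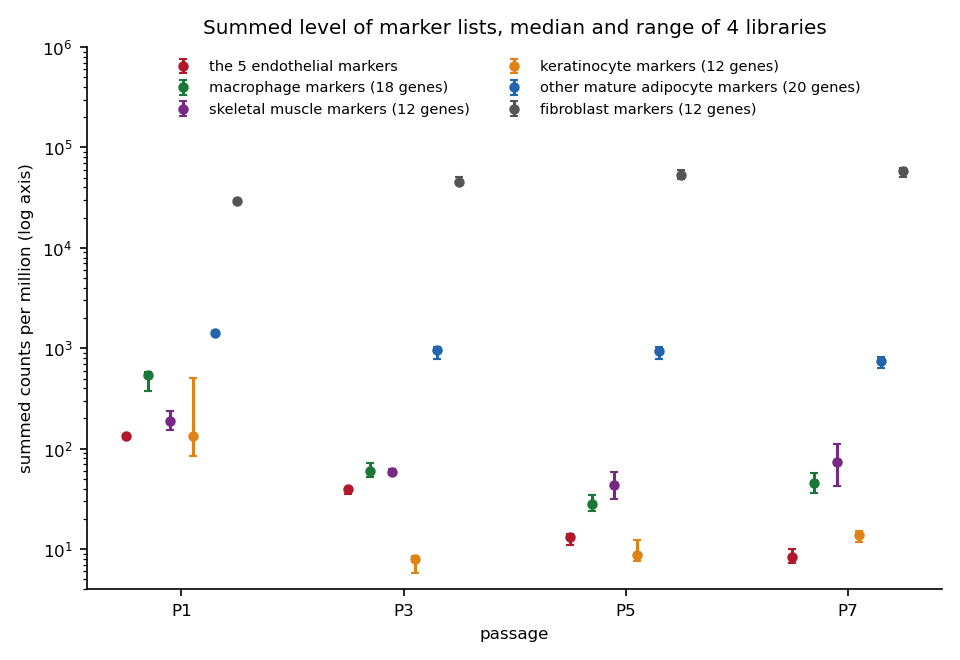
Summed level of each marker list (CPM, log axis) by passage, with the median as a point and the lowest and highest of 4 libraries as bars. The 5 endothelial markers and the macrophage, muscle, keratinocyte and other mature adipocyte lists are lower in every P3 library than in every P1 library, and the fibroblast list is higher.

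The genes whose course over the 16 passage libraries was most like each member's were found by Pearson's r of log2 CPM, as a description across libraries that share passages. For Pecam1 they were Plvap, the diaphragm protein of fenestrated endothelium (r = 0.982), Kctd12 (0.979) and the scavenger receptor Stab1 (0.979), and for Cdh5 the embryonic myosin Myh3 (0.985), Sncaip (0.984) and Podxl (0.983). Emcn was most like Pecam1 (0.977), Kctd12 and Ctss. Cd36 was closest to the replication clamp Pcna (0.985), Tmem65 and Trim72, and Fabp4 to S1pr1 (0.978), Agfg2 and Saa3. For Kdr the genes were Nup85, Akap8 and Lbr (0.983 to 0.979) and for Tek Slc35b4, Mss51 and Plce1 (0.959 to 0.948). Pparg was most like Anxa4 (0.953), Myo19 and Slc4a4, and Lpl Ccdc8 (0.929), Ifi204 and Cdkn1b. Genes of endothelium, muscle, macrophages and the cell cycle stood side by side in these lists.

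ATAC-seq peaks at the start sites were set beside the RNA as ranks. The peaks were called by the authors in each sample, and the strongest peak within 1000 bases of a curated start site was ranked as a percentile of that sample's peaks by -log10 p, with 0 for no peak. The lists held 168982 to 186562 peaks at P1, 142384 to 155681 at P3, 182402 to 207965 at P5 and 200376 to 231558 at P7. A percentile is thus a place in a list whose length changed with passage and no measure of openness. The ranks were therefore also taken over the 142384 strongest peaks of each sample, a choice made after seeing the data. Pecam1 and Emcn had no peak in any of the 13 samples, including the 4 at P1, where their RNA was highest. Cdh5 had a peak in 1 of 4 P1 samples (percentile 9.31) and in none of the later 9. Adipoq had one in 1 of 3 P5 samples (percentile 3.03) and in no other. In the lists of equal length neither Cdh5 nor Adipoq had a peak in any sample.

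Kdr, Tek, Fabp4, Pparg and Lpl had peaks at P1 in 4 of 4 samples. At Kdr, whose CpG-rich window is printed above, the percentiles were 80.6, 75.2, 74.5 and 71.5 at P1, 76.9, 71.4 and 63.4 at P3, 65.2, 57.6 and 67.7 at P5, and 52.2, 23.2 and 35.1 at P7. All P7 samples ranked below all P1 samples, with means of 75.5 ± 3.77 (SD, n = 4) at P1 and 36.8 ± 14.6 (n = 3) at P7. In the lists of equal length they did so too, at 75.9, 70.0, 66.6 and 66.2 at P1 and at 32.7, 0 and 0 at P7. Tek took another course, with 81.2, 81.2, 86.9 and 76.7 at P1 and 88.3, 87.9 and 85.2 at P7, groups that overlapped.

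At Lpl the percentiles were 87.0, 90.7, 99.0 and 91.6 at P1, 76.1, 61.9 and 75.7 at P3, 83.3, 79.6 and 85.5 at P5, and 64.1, 51.2 and 47.4 at P7. Fabp4 went from 64.1, 65.1, 64.7 and 47.8 at P1 to 32.9, 34.6 and 36.0 at P3 and to 41.3, 47.5 and 27.3 at P7. For Kdr, Fabp4 and Lpl, 3 of 10 members, all P7 samples were below all P1 samples, where 20.8% of 26180 genes with a curated start site did the same and 9.53% the opposite. In the lists of equal length these were the same 3 members, where 29.3% of genes did the same and 4.87% the opposite. The 3 of 10 members are thus close to the share over all genes. No p-value was computed for peaks.

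Pparg has 4 curated start sites. The 3 upstream starts lay close together, shared their strongest peak at P1 and moved alike, with mean percentiles of 45.2 at P1 and 15.3, 15.3 and 11.7 at P7. The variant 2 start, further downstream, took another course. At the start of variant 1, the most upstream, the percentiles were 45.4, 44.3, 41.7 and 49.2 at P1, 22.0, 38.5 and 38.8 at P3, 36.9, 27.6 and 11.9 at P5, and 18.6, 11.1 and 16.3 at P7, with all P7 samples below all P1 samples. At the start of variant 2, the isoform of fat cells, they were 31.8, 27.1, 37.8 and 25.3 at P1, 27.2, 17.7 and 0 at P3, 22.3, 50.7 and 0 at P5, and 45.3, 65.9 and 25.1 at P7. The P1 and P7 samples overlapped there, and the highest 2 of P7 were above all of P1. In the lists of equal length no P7 sample had a peak at the variant 1 start, and the variant 2 start was at 11.3 to 18.4 at P1 and at 23.1, 44.5 and 0 at P7. The gene-level counts do not separate the variants. Cd36 had no peak at 2 of its 3 curated starts, and at the start at position 17849792 it had peaks in 2 of 4 P1 samples (percentiles 36.8 and 32.3), in none at P3 or P5, and in 3 of 3 at P7 (12.6, 9.52 and 17.6). In the lists of equal length the 2 peaks at P1 remained (21.6 and 11.3) and none was left at P7.

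**Figure D4:**
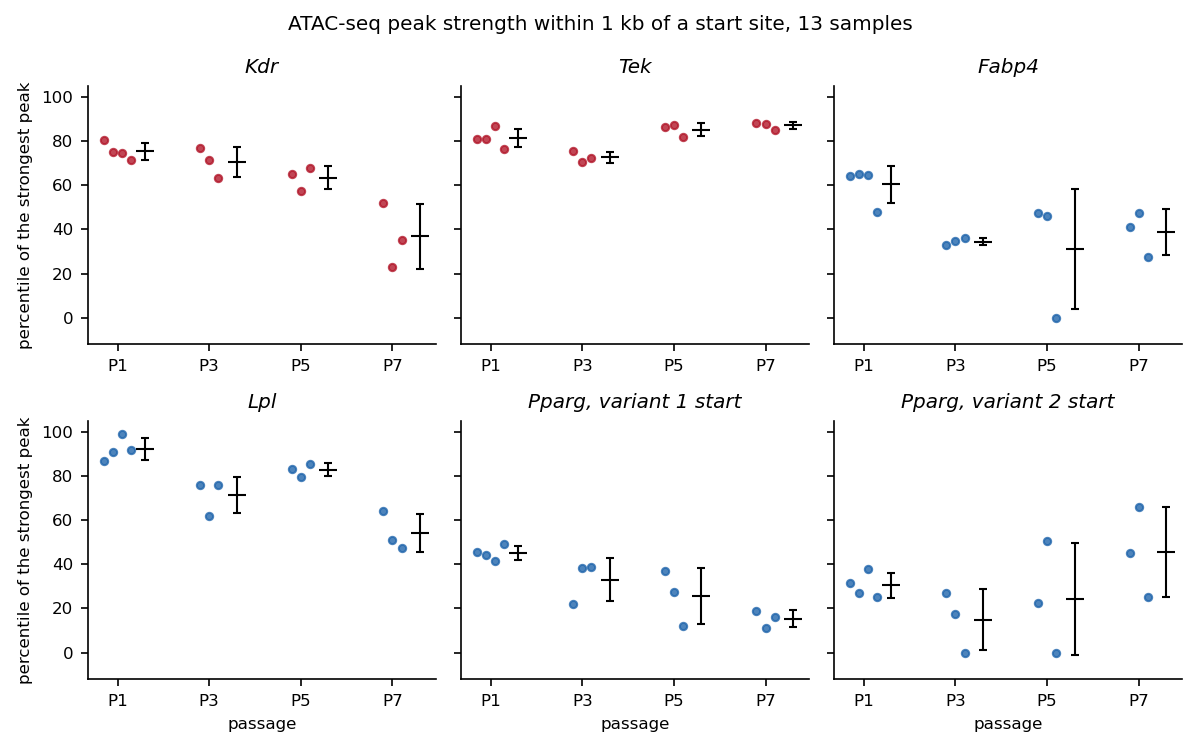
Percentile of the strongest ATAC-seq peak within 1000 bases of a start site (vertical axis, 0 for no peak) in 13 samples by passage, 1 point per sample, with mean and SD as a black bar. Kdr, Lpl and the variant 1 start of Pparg are lower in every P7 sample than in every P1 sample, Tek is not, and the variant 2 start of Pparg overlaps.

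In the perturbation libraries Pecam1, Emcn and Cd36 were at or near the detection limit. Cdh5 was low too, but had 13 to 22 reads in each Atf3 control library. Over 28 libraries Pecam1 had 0 to 10 reads (none in 10 libraries), Emcn 0 to 7, Cd36 0 to 6 (none in 14) and Cdh5 0 to 22, of which only Cdh5 in the Atf3 libraries passed the filter. A count of 0 allows up to 0.109 to 0.328 CPM in these libraries. Kdr (5 to 100 reads), Tek (9 to 181), Fabp4 (17 to 93), Pparg (32 to 267) and Lpl (219 to 3778) were measured in all 28. Macrophage markers were low as well, with summed levels of 8.98 to 25.6 CPM against 372 to 576 at P1, and Cd163 had no read in any of the 28 libraries. Each experiment was scaled on its own, so levels across experiments are side by side only.

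E2f4 overexpression lowered Pparg and Lpl. Pparg was at 11.7 and 13.1 CPM in the control libraries and at 6.07 and 5.78 in the overexpressing ones, a log2 change of -1.06 (SE 0.16, adjusted p = 3.42e-04, edgeR), the only member called of 5 tested, where 18.1% of all genes were called and 10.4% called lower. Without control library 2 it was -0.98, inside the 2-fold threshold. Lpl fell from 24.1 and 18.7 CPM to 14.1 and 10.5 (log2 change -0.80, SE 0.18, adjusted p = 0.00344), by less than 2-fold. With 2 of 5 members past the adjusted p alone, the share over all genes was 57.2%. The 1 of 5 called is close to the 18.1% over all genes, so the members did not stand out from genes at large. Kdr (0.58, adjusted p = 0.11), Tek (0.30) and Fabp4 (0.14) did not pass the test.

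Several other genes of the adipocyte lists rose on E2f4 overexpression, and others fell. Of 18 adipogenic regulators tested 7 were called higher and 5, Pparg among them, lower. Of all 13199 genes tested 1015 were called higher and 1379 lower. Klf5 rose from 4.03 to 19.2 CPM, Cebpd from 31.0 to 143 and Cebpb from 58.3 to 195, all 3 transcription factors of early adipogenesis. With 5 called lower, the list did not move in 1 direction, and these genes do not stand for it. Fabp5 rose from 41.7 to 119 CPM, and of 8 mature adipocyte markers tested Fasn (383 to 805 CPM) and Dgat2 (4.54 to 14.6 CPM) were called higher and none lower. Among 12 endothelial markers tested beside the members 2 were called higher and 2 lower. Erg, an endothelial transcription factor, rose from 0.643 to 8.50 CPM and Egfl7 from 0.586 to 4.14, Ptprb fell from 19.4 to 4.23, and the members Pecam1 and Cdh5 were at 0 to 10 and 1 to 3 reads in these 4 libraries.

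The E2f4 hairpin raised Lpl, from 66.0, 60.9 and 63.5 CPM to 98.9, 85.3 and 94.8, groups that did not overlap (log2 change 0.55, SE 0.08, adjusted p = 2.54e-04, edgeR), by less than 2-fold. No member was called, where 1.67% of all genes were called, and Lpl alone of 5 passed the adjusted p, where 17.8% of all genes did. Pparg was at 4.51 ± 1.25 and 5.42 ± 0.81 CPM (adjusted p = 0.515) and Fabp4 at 5.04 ± 1.34 and 6.30 ± 1.27 (adjusted p = 0.397, both edgeR).

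Both Tead1 hairpins raised the 3 adipocyte members that could be tested, each by less than 2-fold. Lpl was at 30.2, 30.5 and 32.9 CPM in the controls, at 47.2, 47.9 and 52.0 under sh3 and at 53.6, 53.8 and 58.1 under sh4, with no overlap between hairpin and control. The log2 change was 0.65 (SE 0.06, adjusted p = 1.26e-09) and 0.82 (SE 0.06, adjusted p = 1.5e-11). Pparg went from 9.14 ± 0.44 CPM to 12.7 ± 0.69 under sh3 (log2 change 0.47, SE 0.11, adjusted p = 6.8e-04, edgeR) and 11.8 ± 0.11 under sh4 (0.37, SE 0.11, adjusted p = 0.0091). Fabp4 went from 3.12, 2.32 and 1.81 CPM to 3.30, 3.86 and 4.95 under sh3 (0.75, SE 0.22, adjusted p = 0.00709) and 4.79, 4.18 and 4.36 under sh4 (0.89, SE 0.21, adjusted p = 0.0019). None reached 2-fold, so none was called, where 2.71% (sh3) and 1.53% (sh4) of all genes were called. By adjusted p alone 4 and 3 of 5 members passed, where 35.4% and 29.1% of all genes did.

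Kdr fell under sh3, from 2.43, 2.21 and 2.48 CPM to 1.14, 1.05 and 1.90 (log2 change -0.79, SE 0.29, adjusted p = 0.0322, edgeR), and was at 2.11, 2.09 and 1.29 under sh4 (-0.37, adjusted p = 0.345). The sh3 value had adjusted p of 0.00976 to 0.138 over the alternatives and lost the pass without sh3 library 1 or 2 or nt library 1 or 3. Fabp4 under sh3 lost it without sh3 library 3 or nt library 3 (adjusted p of 0.0688 and 0.063, edgeR). Compared directly, sh4 and sh3 differed in no member. For Lpl the difference was 0.17 (SE 0.06, adjusted p = 0.0844) and for Kdr 0.42 (SE 0.30, adjusted p = 0.463), and 0.269% of all genes were called. Both hairpins share the control libraries. As listed in the study's supplement, sh3 and sh4 also target almost the same stretch of Tead1, so they are not independent of each other. Of 18 adipogenic regulators tested 12 were higher and 1 lower by adjusted p under sh3, and 11 and 2 under sh4, Pparg among the higher. Over all genes 35.4% (sh3) and 29.1% (sh4) passed in either direction. Cebpb went from 122 to 194 CPM (sh3) and 170 (sh4), and the preadipocyte factor Dlk1 from 102 to 229 CPM under sh3. Icam1 went from 1.87 to 5.27 (sh3) and 3.80 (sh4). The other adipocyte lists went both ways. Of 9 other mature adipocyte markers tested 2 were higher and 3 lower under sh3, and 2 and 1 under sh4. Of 13 fatty acid handling genes and PPAR targets 5 were higher and 3 lower under sh3, and 3 and 3 under sh4.

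The Atf3 hairpins parted in their effect on Tek and Lpl. Library 3 of sh5 stood apart from the other sh5 libraries. Its counts differed from theirs by 59.4 and 63.7 times sampling noise (chi-square per degree of freedom), against 3.29 between those 2, and 16.8% of its reads had no gene. Without it 489 genes were called under sh5 in place of 694. In the control libraries Tek averaged 7.34 CPM, where Pecam1 was at 0.178, Emcn at 0.175 and Cdh5 at 0.778. At P1, scaled separately, Tek was at 6.29 CPM, Pecam1 at 31.2, Emcn at 5.71 and Cdh5 at 46.0. Tek thus did not go with those endothelial markers here, and which cells its RNA came from was not tested. By library Tek was at 7.42, 6.25 and 8.35 CPM in the controls, at 3.09, 4.65 and 5.52 under sh5 and at 1.39, 0.659 and 0.929 under sh6, 3 groups that did not overlap. The log2 change was -0.73 under sh5 (SE 0.25, adjusted p = 0.043) and -2.88 under sh6 (SE 0.30, adjusted p = 2.43e-05), and the difference between the hairpins was -2.14 (SE 0.31, adjusted p = 2.33e-04, edgeR). The sh5 value had adjusted p of 0.00672 (without sh5 library 3) to 0.143 (without nt library 3) over the alternatives, and lost the pass without sh5 library 1 or 2, without any nt library, with a replicate block and with only the 2 groups in the fit. Lpl was at 160, 125 and 139 CPM in the controls, at 175, 188 and 196 under sh5 and at 32.9, 34.8 and 49.7 under sh6. It fell under sh6 (log2 change -1.85, SE 0.15, adjusted p = 5e-06), was 0.40 higher under sh5 without passing the test (SE 0.15, adjusted p = 0.0562), and differed between the hairpins by -2.25 (SE 0.15, adjusted p = 1.79e-06). Kdr was at 2.60, 2.56 and 1.75 CPM under sh5 and 5.81, 4.25 and 4.82 under sh6, a difference of 1.10 (SE 0.25, adjusted p = 0.00369), and passed the test against the controls under neither. Without sh5 library 3 the differences between the hairpins were -1.97 for Tek, -2.23 for Lpl and 0.93 for Kdr, the last inside 2-fold.

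For sh5, sh6 and their difference 0, 2 and 3 of 6 members were called, where 5.20%, 15.7% and 15.8% of all genes were called. By adjusted p alone 1 member passed under sh5, where 35.9% of genes did. Pparg did not pass the test in any of the 3 comparisons and was at 8.47 ± 0.71 CPM in the controls, 8.87 ± 1.07 under sh5 and 7.96 ± 0.48 under sh6. Cebpa, the partner of Pparg in adipogenesis, fell under sh6 from 55.9 to 6.17 CPM, Dlk1 from 171 to 15.6 and Pi16 from 3.06 to 0.078. Of 19 adipogenic genes tested 7 were called lower and none higher under sh6. Under sh5, with its library 3 included, 6 of the 19 were called lower and none higher. The median log2 change of this list was -0.72 under sh5 and -0.74 under sh6, so its fall was not particular to sh6. Of 9 mural genes tested 2 were called lower and 0 higher under sh5, with its library 3 included (median log2 change -0.35). Under sh6 the counts were 6 lower and 1 higher (-1.19). Ndufa4l2 fell from 8.15 to 0.254 CPM, Abcc9 from 2.46 to 0.466 and Kcnj8 from 1.39 to 0.275, while Mcam rose from 63.7 to 146. The summed mural list was at 295 to 328 CPM in the controls, 197 and 209 in sh5 libraries 1 and 2, 116 in sh5 library 3 and 248 to 260 under sh6, and the summed muscle list at 36.0 to 37.1, 13.5 to 16.9 and 197 to 218, almost all of it Acta1 (206 CPM under sh6). Of 4 muscle markers tested 2 were called higher and 1 lower under sh6. Actn2, Myh8 and Pax7 had no read in any of the 3 groups, and Ckm and Myod1 had 2 and 4 reads in all under sh6 and none in the controls or under sh5. Of the fibroblast markers 4 of 12 were called lower under sh6. The part of these lists in the values of Tek and Lpl was not tested.

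**Figure D5:**
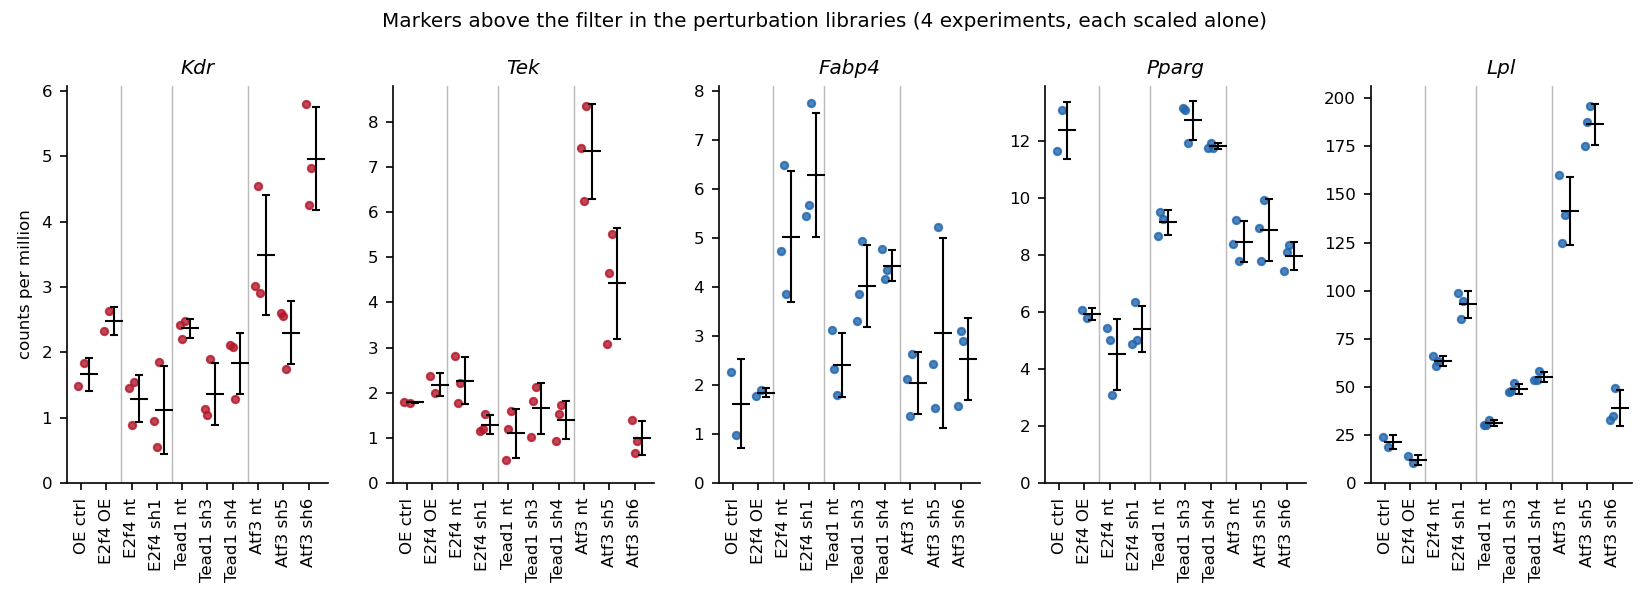
Levels (CPM, vertical axis from 0) of the 5 members that passed the filter in all 4 perturbation experiments, by group, 1 point per library and a black bar for mean and SD, with grey lines between experiments that were scaled separately. Pparg is lower on E2f4 overexpression, Lpl is higher under both Tead1 hairpins, and Tek and Lpl are lowest within the Atf3 experiment under sh6.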

How the data were processed

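RNA-seq counts were deposited per library as raw read counts per gene symbol. Per the study's methods and the submitters' processing notes, the authors used Trimmomatic (0.39) for trimming, HISAT2 (2.2.1) for alignment to the mm10 genome and HTSeq (0.12.4), without regard to strand, for counting. ATAC-seq peak files were deposited per sample, with the fold enrichment and the −log10 p and −log10 q that the authors' MACS2 run gave (Bowtie2 2.3.5.1, duplicates removed). RRBS samples were not analysed here. In the 28 perturbation libraries the rows without a gene (7.5% to 16.8% of reads) were left out.

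Each experiment was fitted alone, with all its groups, in edgeR (4.0.16, R 4.3.3) with TMM scaling, filterByExpr and the quasi-likelihood test, which kept 12310 to 13442 genes, and p-values were adjusted over all of them (Benjamini-Hochberg). Fitted fold changes carry a prior count of 0.125. On simulated counts for P3 against P1 (13442 genes) 89% of 2-fold and 99% of 4-fold changes were recovered. Replicates differed beyond sampling noise in all 50 pairs, so none was merged, and Atf3 sh5 library 3 stood apart from its group. Alternatives were DESeq2 (1.42.0), its size factors, other filters, other samples in the fit, a replicate block, leaving out each library and, added after seeing the data, peak lists of equal length. Peaks were matched to curated RefSeq start sites within 1000 bases with Python (3.11.15), and promoter sequences came from RefSeq (GRCm38.p6).

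The members and lists were chosen with earlier results of these data known. All 10 members are named. From each other list the 3 called genes with the largest change and a mean log2 CPM of at least 0, and the 2 highest at P1, are named. Markers with no read in a group were named after their values were seen. Values of E2f4, Tead1 and Atf3 check the labels.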

Additional observations from a re-analysis of the deposited data

Results flagged for a closer look

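In groups of 4 samples the highest or lowest value was set against the others with Dixon's ratio, for each member's level at each passage and for its peak percentile at P1. In all, 6 of 45 groups had a sample apart. In 4 of them the other 3 values were 0, which sets the ratio to its maximum whatever the size of the value. Of the other 41 groups 2 had a sample apart, where chance gives about 1 in 20. Pparg at P5 was 14.5 CPM in library 1 against 11.4 in each of the other 3. The other RNA values were single-library reads near the detection limit: Cd36 at P7 (0.0763 CPM in library 1, a single read), and Adipoq in P1 library 2 (0.204 CPM) and P3 library 2 (0.137 CPM). Among the ATAC-seq samples, P1 sample 4 stood apart at Cdh5 (percentile 9.31, with no peak in the other 3 samples) and at Fabp4 (47.8, against 64.1 to 65.1).

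The effects of the Atf3 hairpins differed from each other for 3 members in the test of sh6 against sh5. The log2 difference was 1.10 for Kdr, -2.14 for Tek and -2.25 for Lpl, with adjusted p of 0.00369, 2.33e-04 and 1.79e-06 (edgeR), and each was seen in all 3 libraries of both groups without overlap.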

How the results depend on the processing

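The counts of members called at P3 (7), P5 (7) and P7 (9) against P1 and at P5 against P3 (5) were within 1.5 times the printed counts under every alternative except a minimum of 10 counts in every library, which removes the genes that fell and left 3, 3, 5 and 2. P7 against P5 had 1 call, 0 with that minimum or with only the groups compared (which gave 7 for P7 against P1), and 3 with no fold threshold. With no fold threshold the counts were 2 for E2f4 overexpression, 1 for E2f4 sh1, 4 for Tead1 sh3, 3 for Tead1 sh4 and 1 for Atf3 sh5. With no filter Tead1 sh3 had 1. Leaving out each library in turn gave 7 to 9 calls for P7 against P1, 0 to 2 for P7 against P5 (0 without P5 library 2, 2 without P5 library 3), 0 to 2 for E2f4 overexpression (2 without its library 1, 0 without control library 2), 0 to 2 for Tead1 sh3 (2 without sh3 library 3, and 1 without sh3 library 1 or 2 or nt library 1) and 0 to 1 for Tead1 sh4 (1 without nt library 1). For Tead1 the cause was not tested.

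Some changes that had not passed the test turned sign: Lpl at P5 against P1 (-0.20 to 0.12 over all libraries left out, with 0.038 without P1 library 2 and 0.12 without P5 library 4), Pparg at P5 against P3 (0.092 without P3 library 2) and Fabp4 at P7 against P5 (-0.19 to 0.37, with -0.15 without P5 library 4 and -0.18 and -0.19 without P7 library 1 or 3). Kdr in Atf3 sh6 against sh5 was 0.93 without sh5 library 3 and 0.96 without sh6 library 1, inside 2-fold. No called member turned sign. The labels tie no replicate number to a shared series, and 11 of 24 same-numbered passage pairs deviated together with a correlation over 0.1 (-0.26 to 0.28), so pairing was not established, and with a replicate block the counts of members called were 7, 7, 9, 5 and 1 in the passage comparisons, unchanged, as in the perturbation experiments. On the library total the 4 mean levels that moved by more than 1 SD were Cdh5 (49.9 CPM), Kdr (49.4) and Emcn (6.19) at P1 and Tek (1.80) in the overexpression control. Below about 20 reads a library, as for Pecam1, Cd36 and Emcn at P7, depth limits what can be told apart.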
